A study of Homo sapiens with 5 samples.

Results

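Expression in both HOXB13 K13A clones of the prostate cancer line C4-2B was compared with that of parental C4-2B, over autosomal genes. The 3 libraries whose labels give the sample type C4K13A (2 libraries) or C5K13A (1 library) formed one group. The 2 libraries of the sample type Parental_C42B formed the other, so that all 5 libraries of the series were used. C4-2B is a castration-resistant line derived from the LNCaP line. In both clones lysine 13 of HOXB13 is replaced by alanine, and the labels describe lysine 13 as a site of acetylation. All cells were grown in the same C4-2B medium. How the mutation was introduced is not given in the sources used here. Each clone descends from selected cells, so a difference shared by both clones cannot be told apart from one that came with cloning. The labels do not say whether replicates were separate cultures, and p-values therefore measure only how far these libraries scatter, which can be technical scatter. C5K13A is 1 library.

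Total counts ran from 43190276 to 57282373 per library, and 20649 genes had enough counts to be tested, of which 19525 lie on autosomes. All 12 luminal prostate markers were present at 1 CPM or more. CPM here means counts scaled to a common library total with TMM factors. Their summed level was 7750 and 5680 CPM in parental libraries 1 and 2 and 5550 to 6510 in the clones. Summed markers of basal cells were at 21.1 to 21.6 CPM in parental and 11.9 to 18.9 in the clones, and those of neuroendocrine cells at 6.59 to 12.4 and 4.30 to 5.07 CPM. The basal sum was mostly DST, with 19.4 and 20.2 CPM in parental and 12.2, 9.81 and 17 in the clones. The basal markers LAMB3 and COL17A1 were low, but higher in every clone library than in both parental ones. Summed fibroblast markers were at 10.4 to 11 and 7.24 to 9.50 CPM, and endothelial ones at 7.75 to 9.34 and 7.04 to 8.39 CPM. In parental the largest parts of these sums were COL1A1 and VWF, both lower in every clone library. COL3A1 and ENG, of the same lists, were higher in every clone library. Leukocyte markers summed to less than 1 CPM in each library, with CD3E and MS4A1 at 0 counts, as was the fibroblast marker LUM. Residual mitochondrial ribosomal RNA differed between libraries, from 29.03 CPM in parental library 1 to 1723 CPM in parental library 2. It was at 65.4 and 353 in C4K13A and at 658 in C5K13A, so it did not separate the groups. The part of the other cell markers in the results was not tested. With a covariate for residual ribosomal RNA, coded only as above or below 200 CPM, 27 of the 29 autosomal genes described below were called among 57. In parental and C4K13A that split sets libraries 1 against libraries 2, so it cannot be told apart from the replicate number.

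The homeobox transcription factor HOXB13 marks prostate epithelium and binds DNA together with MEIS partners and the androgen receptor. Acetylation of lysines in transcription factors can alter which cofactors they bind. The comparison asks which transcripts differ where that lysine is replaced. HOXB13 RNA itself had 338 and 448 CPM in parental, 344 and 348 in C4K13A and 352 in C5K13A. The clone libraries lay between the parental ones, with a difference of -0.18 ± 0.17 (log2, SE) that did not pass the test (adjusted p = 0.739 by edgeR). Read counts per gene do not show the K13A substitution.

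Of 19525 autosomal genes, 3 rose (0.0154%) and 26 fell (0.133%) in the K13A clones at an adjusted p of 0.05 or less in edgeR's quasi-likelihood test, and 28 of these 29 are protein-coding. They lie on 15 different autosomes. At an unadjusted p under 0.05 there were 2138. The adjustment ran over all genes tested, and it included 10 called genes on chromosome Y and 3 on chromosome X, which are not described here. Adjusted over autosomal genes alone, 7 of the 29 passed: PCDH7, MYT1, MMP16, SGCE, TXNIP, RN7SL8P and ARRDC4. The other 22 then had adjusted p-values from 0.0614 to 0.0661. In each of the 29, every clone library lay on the same side of both parental libraries. The gap between the nearest libraries of the groups was also wider than the fold between the parental libraries in all 29. That gap was narrowest for GRB10, at 1.87-fold. The 29 were picked by a test on these same libraries, so these features describe the picks and are no added support.

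The genes that rose were TXNIP, ARRDC4 and PTX4. TXNIP and ARRDC4 encode alpha-arrestins that promote the internalisation of glucose transporters, and both are textbook targets of the glucose-sensing transcription factor MondoA and its partner MLX. These factors bind pairs of E-box-like sites known as carbohydrate response elements. The 250 bases before each start site are shown because these are the paired family members among the rises. Sequences are those of RefSeq on GRCh38.p14, 5′ to 3′ on the strand of the gene, and capitals mark each match to the element core CACGNG on either strand. The TXNIP window is chr1:145996580-145996829 (minus strand) and that of ARRDC4 is chr15:97960453-97960702 (plus strand).
TXNIP: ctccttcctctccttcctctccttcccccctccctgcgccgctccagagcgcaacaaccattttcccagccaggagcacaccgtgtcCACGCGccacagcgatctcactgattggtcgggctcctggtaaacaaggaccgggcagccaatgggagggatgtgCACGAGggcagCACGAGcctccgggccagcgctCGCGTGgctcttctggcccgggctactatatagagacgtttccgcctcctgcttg
ARRDC4: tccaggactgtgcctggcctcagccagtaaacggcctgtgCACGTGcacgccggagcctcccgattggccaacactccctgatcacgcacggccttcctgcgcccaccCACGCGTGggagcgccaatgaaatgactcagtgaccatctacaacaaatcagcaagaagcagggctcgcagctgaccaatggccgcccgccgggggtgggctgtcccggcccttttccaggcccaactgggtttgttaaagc

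The TXNIP sequence holds 4 such cores, of which 2 stand 5 bases apart in the same orientation, starting at position -88 from the start site. Such a pair occurred in 19 of 33725 autosomal promoters (0.0563%). That spacing was looked up after the sequences had been seen. The ARRDC4 sequence holds 3 matches, among them the palindromic E-box CACGTG and a pair that overlap in opposite orientation. Single cores are common: CACGNG occurred on either strand in 30.4% of all autosomal promoters of 300 bases, and in 11 of the 21 called genes with an entry. CACGTG, which is one form of CACGNG, occurred in 7.18% of all promoters and in 1 of the 21, ARRDC4. The core of the amino acid response element, TGATGNAA, occurred in 3.64% of all promoters and in 2 of the 21, SYNE1 and S100P. The letters CAATAAA, a preferred site of HOXB13-type homeodomains, occurred in 4.05% of all promoters and in 0 of the 21. A match is a description of the letters and not a bound site.

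TXNIP had 1.82 and 4.96 CPM in parental, 58.4 and 85.8 in C4K13A and 106 in C5K13A. The lowest clone library stood far above the higher parental one, and TXNIP rose by 4.63 ± 0.48 (log2, adjusted p = 0.0182). ARRDC4 had 3.72 and 4.64 CPM in parental, 15.5 and 18.3 in C4K13A and 15.8 in C5K13A. The clone libraries lay close together, and the rise was 1.98 ± 0.22 (adjusted p = 0.0228). The other measured alpha-arrestins did not pass the test: ARRDC1 had a difference of -0.001, ARRDC2 of -0.22 and ARRDC3 of -0.16. Neither did MLXIP, the gene of MondoA (0.06), nor MLX (0.02). Of the 14 members tested in the list of the MondoA network and alpha-arrestins, 2 were called, both higher. Without overlap between groups, 4 were higher and 4 lower (28.6% each), against 13.7% and 14.8% over all autosomal genes. MLXIPL was among the lower ones, with 3.27 and 2.09 CPM in parental and 0.938, 0.771 and 1.37 in the clones (-1.39 ± 0.38, adjusted p = 0.260 by edgeR). The median of the 14 was -0.15 (-0.07 without parental library 2), against -0.004 over all autosomal genes.

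PTX4, a member of the pentraxin family on chromosome 16, had 0.691 and 0.866 CPM in parental, 6.48 and 5.63 in C4K13A and 4.22 in C5K13A. All libraries were under 10 CPM, and PTX4 rose by 2.81 ± 0.34 (adjusted p = 0.0381). Its 80 tested protein-coding neighbours within 1 Mb had a median of -0.003.

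The falls are given in groups made after the calls were seen. The first holds genes of adhesion and of the cell surface, with a Golgi enzyme and a secreted factor. PCDH7, a protocadherin, had 5.21 and 5.43 CPM in parental and 2 counts in all over the clones, both in C4K13A library 1, against 585 counts in parental. The ratio of pooled counts put it 359-fold lower, with an exact 95% interval of 99.0 to 2974 that covers counting error only (adjusted p = 0.0155). SGCE, the epsilon-sarcoglycan of the dystrophin-associated complex, had 3.51 and 3.82 CPM in parental, 0.0798 and 0.0701 in C4K13A and 0 counts in C5K13A. It was at trace level in each clone library, and fell by 6.09 on the log2 scale (SE 0.64, adjusted p = 0.0182). MMP16, a membrane-type matrix metalloproteinase, had 62.0 and 82.2 CPM in parental, 3.43 and 0.701 in C4K13A and 2.36 in C5K13A. It was the most abundant parental transcript among those that fell by more than 4 on the log2 scale (-5.05 ± 0.51, adjusted p = 0.0172). LRRN1, a neuronal leucine-rich repeat membrane protein, had 24.7 and 7.77 CPM in parental, 1.20 and 0.421 in C4K13A and 0.778 in C5K13A. Parental library 1 was the high one for LRRN1, and the parental libraries differed by about as much for CHST2, a Golgi sulfotransferase (9.24 and 2.70 CPM in parental, 0.359, 0.140 and 0.377 in the clones). The falls were -4.33 ± 0.56 for LRRN1 and -4.34 ± 0.61 for CHST2 (adjusted p = 0.0420 and 0.0483). FIBIN, a secreted fin bud factor, had 2.17 and 2.01 CPM in parental and from 0.0399 to 0.141 in the clones (-4.50 ± 0.52, adjusted p = 0.0325).

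Further falls are given here by the role of the gene product, first those that bind the cytoskeleton. This order was made after the calls were seen and is no list. MAP1B, a microtubule-associated protein, had 230 and 151 CPM in parental, 46.9 and 42.9 in C4K13A and 69.1 in C5K13A. Its groups were more than 2-fold apart at their nearest libraries, and it fell by 1.85 (SE 0.26, adjusted p = 0.0456). KIF5C, a kinesin heavy chain, had 26.3 and 21.0 CPM in parental, 8.80 and 6.71 in C4K13A and 5.61 in C5K13A (-1.74 ± 0.23, adjusted p = 0.0446). MARK1, a kinase of microtubule-associated proteins, had 9.86 and 6.90 CPM in parental and 2.37, 2.24 and 2.19 in the clones. The 3 clone libraries were nearly level for MARK1 (-1.88 ± 0.26, adjusted p = 0.0447). ANK2, the ankyrin that ties membrane proteins to spectrin, had 2.48 and 6.29 CPM in parental, 0.0399 CPM and 0 counts in C4K13A and 0.141 in C5K13A (-6.14 ± 0.81, adjusted p = 0.0438). SYNE1, a nesprin that links the nucleus to the cytoskeleton, had 2.31 and 2.03 CPM in parental and 0.0935 to 0.239 in the clones (-3.61 ± 0.47, adjusted p = 0.0420). TES, a LIM-domain protein of focal adhesions, had 31.4 and 34.2 CPM in parental, 14.5 and 11.6 in C4K13A and 14.1 in C5K13A. The parental libraries agreed closely for TES, and it fell by 1.29 (SE 0.17, adjusted p = 0.0438). The summed neuroendocrine markers, which were lower in each clone library too, rest on SYP and ENO2, an enolase of neurons that had 9.40 and 3.52 CPM in parental and 2.02, 1.82 and 2.66 in the clones. CHGB, INSM1, NEUROD1 and SCG2 were under 0.1 CPM in every library.

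The transcription factor genes MYT1 and ZNF608 fell. MYT1, a zinc finger factor of neural differentiation, had 3.69 and 3.99 CPM in parental, 0.2 and 0.117 in C4K13A and 0.283 in C5K13A (-4.25 ± 0.42, adjusted p = 0.0172). ZNF608 had 27.3 and 15.9 CPM in parental, 4.45 and 2.15 in C4K13A and 2.73 in C5K13A (-2.79 ± 0.35, adjusted p = 0.0402). For both, the groups did not overlap and the clones stood at similar levels.

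Among channels and enzymes, SCNN1B, the beta subunit of the epithelial sodium channel, had 2.58 and 1.34 CPM in parental and 0.160, 0.140 and 0.141 in the clones (-3.71 ± 0.47, adjusted p = 0.0402). KCNG1, a modifier subunit of voltage-gated potassium channels, had 6.83 and 3.62 CPM in parental and 0.660 to 0.938 in the clones (-2.78 ± 0.38, adjusted p = 0.0446). Both were low-level transcripts in every library. CA1, a carbonic anhydrase, had 6.47 and 2.73 CPM in parental, 0.120 and 0.210 in C4K13A and 0.424 in C5K13A (-4.20 ± 0.58, adjusted p = 0.0447). PLPP2, a lipid phosphate phosphatase, had 38.7 and 19.7 CPM in parental, 3.73 and 3.57 in C4K13A and 5.96 in C5K13A (-2.72 ± 0.34, adjusted p = 0.0388). Parental library 1 was the higher one for SCNN1B, KCNG1, CA1 and PLPP2. It was also the higher one for SHISA2, an endoplasmic reticulum protein that retains FGF and Wnt receptors (2.31 and 1.02 CPM in parental, 0.0467 to 0.0942 in the clones, -4.45 ± 0.58, adjusted p = 0.0438). In all, parental library 1 was above parental library 2 in 15 of the 26 genes that fell.

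Secreted and signalling genes were also among the falls. GDF15, a stress-induced cytokine of the TGF-beta superfamily, had 1160 and 518 CPM in parental, 62.2 and 38.2 in C4K13A and 99.7 in C5K13A. ADM2, a peptide of the calcitonin family, had 216 and 225 CPM in parental, 68.7 and 80.7 in C4K13A and 104 in C5K13A. C5K13A was the clone library nearest to parental for both (-3.66 ± 0.45, adjusted p = 0.0388 for GDF15, and -1.38 ± 0.19, adjusted p = 0.0483 for ADM2). GRB10, an adaptor that dampens insulin receptor signalling, had 199 and 174 CPM in parental, 93.0 and 89.6 in C4K13A and 84.1 in C5K13A. Its fall of 1.07 on the log2 scale was the smallest in size among the 29 (SE 0.15, adjusted p = 0.0447). S100P, a calcium-binding protein, had 5.58 and 10.2 CPM in parental and 0.838, 1.19 and 1.48 in the clones (-2.75 ± 0.37, adjusted p = 0.0446).

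Cysteine supply was represented by SLC7A11, which carries cystine into the cell, and CTH, which releases cysteine from cystathionine. SLC7A11 had 144 and 152 CPM in parental, 23.6 and 28.2 in C4K13A and 49.3 in C5K13A (-2.14 ± 0.29, adjusted p = 0.0446). CTH had 18.3 and 25.5 CPM in parental, 3.07 and 3.32 in C4K13A and 6.06 in C5K13A (-2.40 ± 0.32, adjusted p = 0.0446). For both genes C5K13A lay between C4K13A and parental. The remaining called gene, RN7SL8P, is annotated as a pseudogene of the 7SL RNA (2.46 and 4.43 CPM in parental, at most 0.0701 in the clones, adjusted p = 0.0228). Near-identical 7SL copies exist, and how reads with several alignments were counted is not given in the sources used here, so its value is uncertain.

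**Figure D1:**
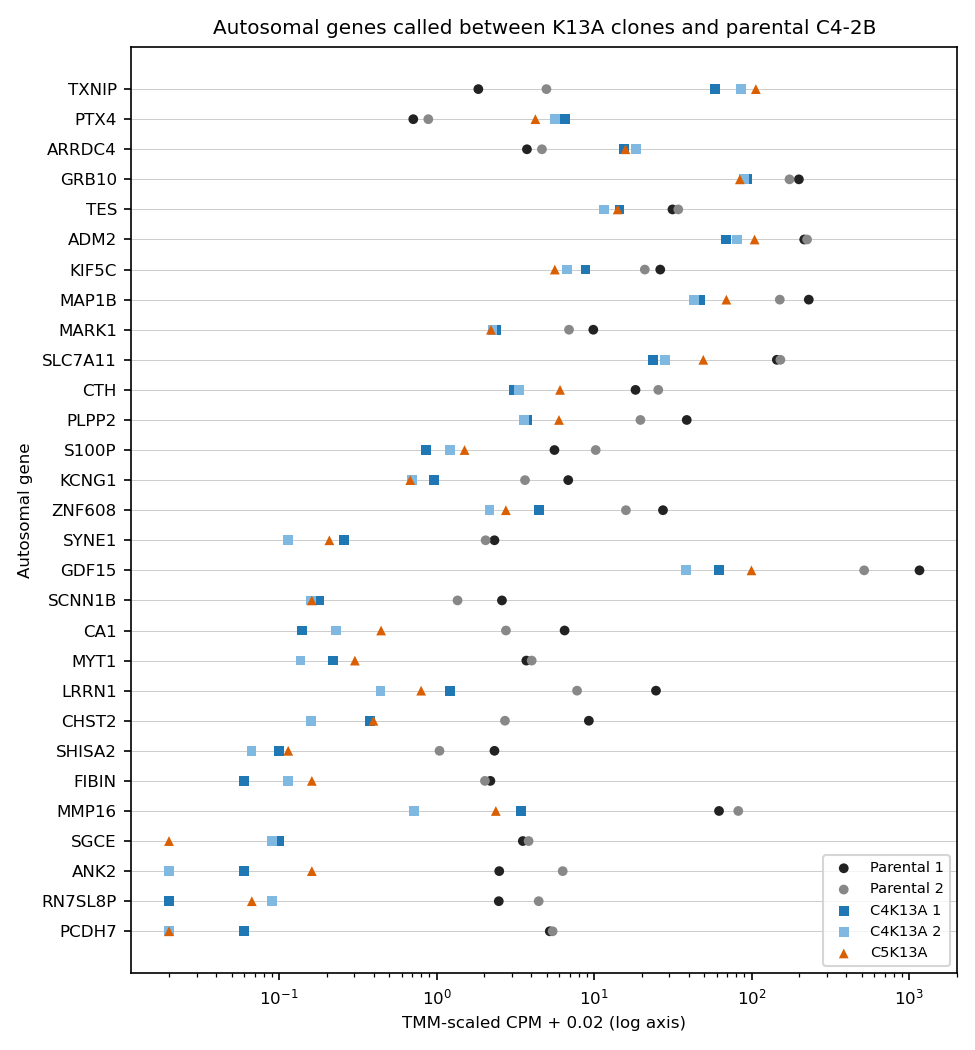
TMM-scaled CPM plus 0.02 (log axis) of the 29 autosomal genes called, by library; the offset places libraries with 0 counts at the left. Circles are the 2 parental libraries, squares the 2 C4K13A libraries and triangles the C5K13A library, and in each gene every clone library lies on the same side of both parental ones.

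Each clone was then set beside the same parental libraries in a fit of 3 groups. The clones share those controls, so their values are given side by side. The fitted differences of C4K13A and C5K13A were 4.42 ± 0.47 and 4.98 ± 0.51 for TXNIP, 2.01 ± 0.24 and 1.92 ± 0.27 for ARRDC4, and 2.96 ± 0.34 and 2.44 ± 0.38 for PTX4. For MMP16 they were -5.11 ± 0.62 and -4.93 ± 0.84, and for LRRN1 -4.31 ± 0.68 and -4.38 ± 0.93. The clones differed by less than the standard error of either value for MMP16, LRRN1, ARRDC4, SCNN1B (-3.68 and -3.77), MARK1 (-1.86 and -1.93), SYNE1 (-3.66 and -3.51), GRB10 (-1.03 and -1.15) and TES (-1.33 and -1.22). The same held for ZNF608, KCNG1, RN7SL8P, SHISA2 and CHST2, some of which have wide standard errors. In 24 of the 29 the clones were within 1 of each other on the log2 scale. The main test counts differences between clones as scatter, so this closeness is partly built into the choice of the 29.

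C5K13A tested directly against C4K13A gave 0 autosomal genes (0%) at an adjusted p of 0.05 or less by edgeR, and 1307 at an unadjusted p under 0.05. Among the 29 the smallest adjusted p of that contrast was 0.355. An unadjusted p under 0.05 was seen in 3 of them: SLC7A11 (-2.52 in C4K13A and -1.59 in C5K13A, unadjusted p = 0.00267 by edgeR), CTH (-2.78 and -1.85, 0.0161) and SGCE, for which C5K13A had 0 counts. C4K13A was farther from parental than C5K13A in 19 of the 29. With 1 C5K13A library, a p that misses the threshold does not show that the clones were alike.

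**Figure D2:**
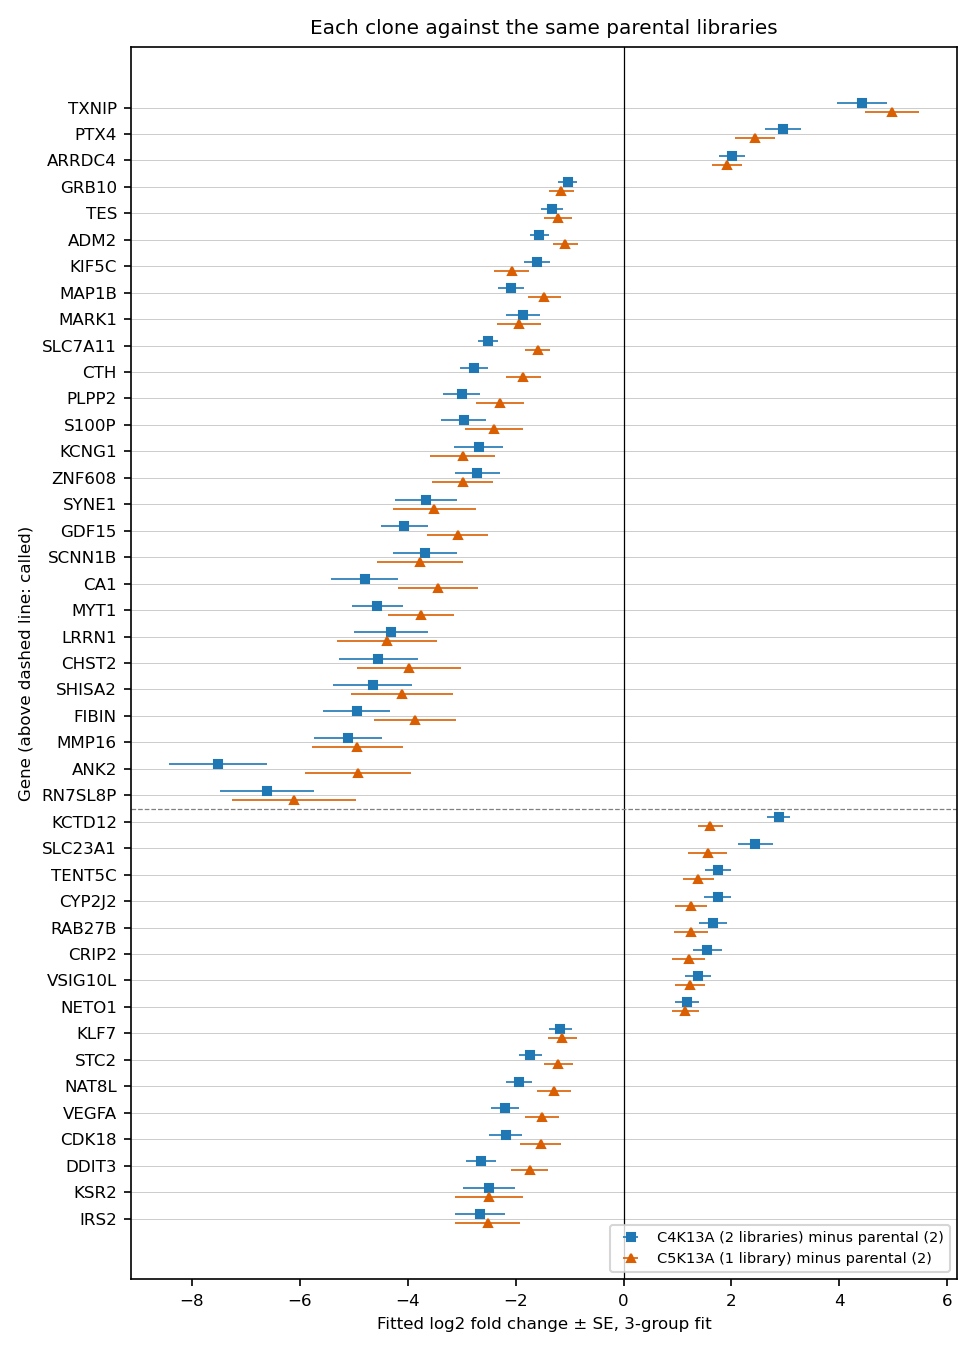
Fitted log2 fold change ± SE of C4K13A (squares, 2 libraries) and C5K13A (triangles, 1 library) against the same 2 parental libraries, for called genes above the dashed line and 16 further genes below it that did not pass the test. PCDH7 and SGCE are left out because C5K13A had 0 counts; TXNIP is at 4.42 and 4.98, and IRS2 at -2.66 and -2.52.

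A wider view took every gene whose clone libraries all lay on one side of both parental libraries. There were 2675 such autosomal genes on the higher side (13.7%) and 2896 on the lower side (14.8%). When each clone also had to differ from parental by at least 1 on the log2 scale, 258 genes were higher (1.32%) and 622 lower (3.19%). These are called shifted alike below. Among them 142 of the higher and 396 of the lower genes are protein-coding. Shifted alike is a description without a test. Every one of the 29 called genes met it, which is no added support, since they were picked from the same libraries.

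The 8 protein-coding genes of the smallest p on each side, among those shifted alike at 5 CPM or more and not called, are given as values. On the higher side, TENT5C, a noncanonical poly(A) polymerase, had 8.04 and 7.79 CPM in parental, 21.4 and 32.1 in C4K13A and 20.7 in C5K13A (1.64 ± 0.24, adjusted p = 0.0596). NETO1, an auxiliary subunit of glutamate receptors, was the most abundant, with 225 and 272 CPM in parental, 489 and 634 in C4K13A and 548 in C5K13A (1.16 ± 0.18, adjusted p = 0.0747). Parental libraries were close together for both, and the clones stood clear of them. CYP2J2, an epoxygenase of arachidonic acid, had 9.99 and 10.1 CPM in parental and 26.3, 41.3 and 23.9 in the clones (1.60 ± 0.26, adjusted p = 0.0824). KCTD12, an auxiliary subunit of GABA-B receptors, had 5.22 and 4.86 CPM in parental, 41.0 and 33.3 in C4K13A and 15.4 in C5K13A (2.57 ± 0.40, adjusted p = 0.0735). C5K13A was nearer to parental for KCTD12, as it was for SLC23A1, a vitamin C transporter (2.44 in C4K13A and 1.56 in C5K13A). RAB27B, a small GTPase of secretory vesicles (1.54 ± 0.26), CRIP2, a LIM-domain protein (1.45 ± 0.25), and VSIG10L (1.33 ± 0.22) made up the rest, with adjusted p-values from 0.0824 to 0.103.

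On the lower side, DDIT3, the stress transcription factor CHOP, had 51.5 and 31.3 CPM in parental, 6.64 and 6.61 in C4K13A and 12.4 in C5K13A (-2.28 ± 0.33, adjusted p = 0.0524). IRS2, an insulin receptor substrate, had 39.0 and 16.8 CPM in parental, 5.77 and 3.04 in C4K13A and 4.88 in C5K13A (-2.61 ± 0.39, adjusted p = 0.0596). The parental libraries differed by more than 2-fold for IRS2, and all clone libraries were below both. KLF7, a Krüppel-like factor, had 23.3 and 19.6 CPM in parental and 8.92, 10.1 and 9.78 in the clones (-1.16 ± 0.18, adjusted p = 0.0722). NAT8L, which makes N-acetylaspartate, had 40.0 and 34.8 CPM in parental and 11.8, 7.80 and 15.3 in the clones (-1.69 ± 0.27, adjusted p = 0.0744). KSR2, a scaffold of the MAP kinase cascade (-2.49 ± 0.40), and CDK18, a cyclin-dependent kinase (-1.94 ± 0.30), also kept apart in every library. STC2, a secreted stanniocalcin, had 223 and 180 CPM in parental, 68.5 and 53.3 in C4K13A and 87.2 in C5K13A (-1.53 ± 0.22, adjusted p = 0.0522). VEGFA, the angiogenic growth factor, had 239 and 155 CPM in parental, 47.2 and 38.8 in C4K13A and 69.4 in C5K13A (-1.93 ± 0.28). VEGFA missed the threshold with an adjusted p of 0.0522 and passed it in 5 of 17 alternative settings. TNK2, the kinase ACK1, was named by a fixed choice and was not shifted alike (-0.82 in C4K13A and -0.84 in C5K13A). It had 119 and 70.9 CPM in parental and 64.5, 43.1 and 53.2 in the clones (-0.83 ± 0.25, adjusted p = 0.295). The difference of TNK2 was -0.40 without parental library 1.

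Functions were followed through 28 gene lists, by the count of members with no overlap between groups, to be read against 13.7% higher and 14.8% lower over all autosomal genes. Lists chosen with earlier results of these libraries known are no independent evidence of a direction. Regulators and secreted factors of the ATF4 pathway, which answers amino acid shortage and stress of the endoplasmic reticulum, had 17 of 23 members lower (73.9%) and 1 higher. Of the 23, 2 were called, GDF15 and ADM2, and 6 were shifted alike on the lower side. The median was -1.08, with -1.23 in C4K13A and -0.89 in C5K13A. SESN2, a stress-induced inhibitor of mTORC1 signalling that is not among the called genes, had 94.0 and 90.4 CPM in parental and 34.9, 43.7 and 47.9 in the clones (adjusted p = 0.0635). ATF3, a stress transcription factor, had -1.66 in C4K13A and -0.90 in C5K13A (adjusted p over both clones 0.135). Of 32 genes of endoplasmic reticulum chaperones and associated degradation, 5 were lower (15.6%) and 2 higher (6.25%) without overlap, with 0 called. That lower share is close to the one over all autosomal genes, and the medians were -0.15 in C4K13A and 0.02 in C5K13A.

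Genes of amino acid metabolism had medians smaller in size than that of the ATF4 list, on the same side in both clones. In the list of serine, glycine, folate and other amino acid synthesis 12 of 24 were lower without overlap (50%) and 3 higher, with 0 called and a median of -0.38. MTHFD2, a mitochondrial folate enzyme, had 145 and 175 CPM in parental and 81.7, 90.7 and 105 in the clones (adjusted p = 0.181). BCAT1, the branched-chain aminotransferase, had 44.0 and 54.5 CPM in parental, 11.9 and 12.9 in C4K13A and 29.7 in C5K13A. Its clones stood apart from each other (-1.99 and -0.73). Of 20 cytosolic aminoacyl-tRNA synthetases 10 were lower without overlap (50%) and 3 higher, with 0 called and a median of -0.28 (-0.13 without parental library 2). SARS1, the seryl-tRNA synthetase, had 380 and 275 CPM in parental and 121, 146 and 186 in the clones (-1.12 ± 0.22, adjusted p = 0.147).

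Of 23 amino acid transporters of the plasma membrane 11 were lower without overlap (47.8%) and 1 higher, and SLC7A11 was called. SLC1A4, a neutral amino acid exchanger, had 47.4 and 49.1 CPM in parental and 18.0, 20.0 and 26.0 in the clones (-1.18 ± 0.19, adjusted p = 0.0750). SLC6A9, a glycine transporter, had 95.3 and 89.8 CPM in parental, 17.6 and 24.3 in C4K13A and 43.5 in C5K13A (-1.70 ± 0.33, adjusted p = 0.135). Both were lowest in C4K13A. SLC3A2, the heavy chain that partners SLC7A11, had 313 and 294 CPM in parental and 134, 151 and 193 in the clones (-0.93 ± 0.18, adjusted p = 0.147). Of 19 tested genes of cystine uptake, transsulfuration and glutathione, 2 were called, SLC7A11 and CTH, and the median of this list was -0.03 (-0.19 without parental library 2).

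Lysosome and autophagy genes had 11 of 27 members lower without overlap (40.7%), 0 higher and 0 called, with a median of -0.28 (-0.32 in C4K13A and -0.23 in C5K13A). RRAGD, a GTPase that brings mTORC1 to the lysosome, had 26.2 and 13.9 CPM in parental and 9.68, 8.62 and 9.97 in the clones (adjusted p = 0.222). FLCN, the folliculin of the same machinery, had 48.6 and 34.9 CPM in parental and 23.8, 22.4 and 26.0 in the clones (adjusted p = 0.192). The clone libraries agreed within a narrow range for both genes. GABARAPL1, an autophagosome protein, was at 16.1 and 9.09 CPM in parental and 5.27, 3.11 and 6.64 in the clones (adjusted p = 0.250).

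In the list of cyclic GMP signalling 7 of 16 were lower without overlap (43.8%) and 2 higher, with 0 called. GUCY1A1 and GUCY1B1 encode the subunits of the nitric oxide receptor, soluble guanylate cyclase. GUCY1A1 had 110 and 123 CPM in parental, 56.8 and 46.0 in C4K13A and 22.5 in C5K13A (adjusted p = 0.184). C5K13A was the lowest library there (-1.18 in C4K13A and -2.37 in C5K13A). GUCY1B1 had 19.1 and 28.4 CPM in parental and 12.0, 12.4 and 10.5 in the clones (adjusted p = 0.158). Synaptic and neuronal adhesion genes had 8 of 27 lower without overlap (29.6%) and 1 higher, with LRRN1 called. NRXN3, a neurexin, had 35.7 and 37.5 CPM in parental and 8.42, 13.2 and 17.6 in the clones (adjusted p = 0.127).

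DNA replication and S-phase genes had the largest share on the higher side among the 28 lists, with 18 of 34 members higher without overlap (52.9%), 1 lower and 0 called. The size was small, with medians of 0.38 in C4K13A and 0.36 in C5K13A. RRM2, the small subunit of ribonucleotide reductase, had 119 and 145 CPM in parental and 212, 234 and 197 in the clones (0.70 ± 0.17, adjusted p = 0.206). UHRF1, which maintains DNA methylation at replication, had 44.3 and 63.6 CPM in parental and 84.7, 87.6 and 88.0 in the clones (adjusted p = 0.244). The median of 0.39 over both clones was 0.15 without parental library 1 and 0.70 without parental library 2. Mitotic genes had a similar median of 0.38, but only 5 of 34 were higher without overlap (14.7%), close to the share over all autosomal genes. CDK1, the mitotic kinase, had 72.6 and 187 CPM in parental and 255, 279 and 282 in the clones (1.07 ± 0.35, adjusted p = 0.319). The spread of the parental libraries was wide for CDK1. The mitotic median was 0.08 without parental library 1 and 0.79 without parental library 2.

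Cholesterol synthesis and uptake genes had 9 of 23 higher without overlap (39.1%), 1 lower and 0 called, with medians of 0.13 in C4K13A and 0.27 in C5K13A and -0.01 over both clones without parental library 1. IDI1, an isomerase of the isoprenoid pathway, had 29.1 and 37.0 CPM in parental and 48.2, 45.1 and 48.5 in the clones (0.52 ± 0.16, adjusted p = 0.311). Androgen-activated genes were spread to both sides, with 9 of 27 higher (33.3%) and 3 lower without overlap and a median of 0.03. FKBP5, an androgen-induced chaperone of steroid receptors, had 157 and 220 CPM in parental, 531 and 453 in C4K13A and 271 in C5K13A (1.15 ± 0.30, adjusted p = 0.233). On the lower side, TMEFF2, a transmembrane proteoglycan of brain and prostate, had 40.5 and 61.8 CPM in parental, 2.29 and 0.210 in C4K13A and 3.60 in C5K13A (-4.65 ± 0.75, adjusted p = 0.0824). The list median differed in sign between the clones, at 0.21 and -0.12, and ran from -0.01 to 0.22 over both clones when each library was left out in turn. Of 30 cofactors of HOXB13 and enzymes of acetylation 0 were called, and their median was 0.02 (0.009 to 0.03 when each library was left out).

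Further lists are given by their counts. Of 32 glycolysis and hypoxia-response genes 11 were lower without overlap (34.4%), 1 higher and 0 called. BNIP3L, a mitophagy receptor, had 105 and 72.6 CPM in parental and 52.4, 40.4 and 39.3 in the clones (adjusted p = 0.156). MAPK feedback and immediate early genes had 8 of 28 lower (28.6%) and 3 higher (10.7%) without overlap. SPRY4, a feedback inhibitor of receptor tyrosine kinases, was on the higher side with 0 and 0.138 CPM in parental and 0.619, 2.90 and 2.43 in the clones (adjusted p = 0.192). Of 20 sulfotransferases, in a list mostly of those of carbohydrates, 4 were higher (20.0%) and 1, CHST2, lower without overlap. Of 18 metalloproteinases and inhibitors 2 were higher (11.1%) and 5 lower (27.8%) without overlap, with MMP16 the called one and a median of -0.12. MMP15, another membrane-type enzyme, had 232 and 277 CPM in parental and 470, 580 and 353 in the clones (0.88 ± 0.23, adjusted p = 0.234). Of 17 cadherins and protocadherins 3 were higher (17.6%) and 5 lower (29.4%) without overlap, with PCDH7 the called one. Their median was 0.02, and ran from -0.40 to 0.08 when each library was left out in turn. Androgen-repressed genes, of which 8 were tested, had 3 lower and 0 higher without overlap. Their median was -0.17 over both clones, -2.19 in C4K13A and -0.86 in C5K13A. Members such as CCN3 (1.75 and -1.92) and PEG3 (0.50 and -0.94) had opposite signs in the clones. Interferon-stimulated genes had 1 of 27 higher (3.70%) and 2 lower (7.41%).

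**Figure D3:**
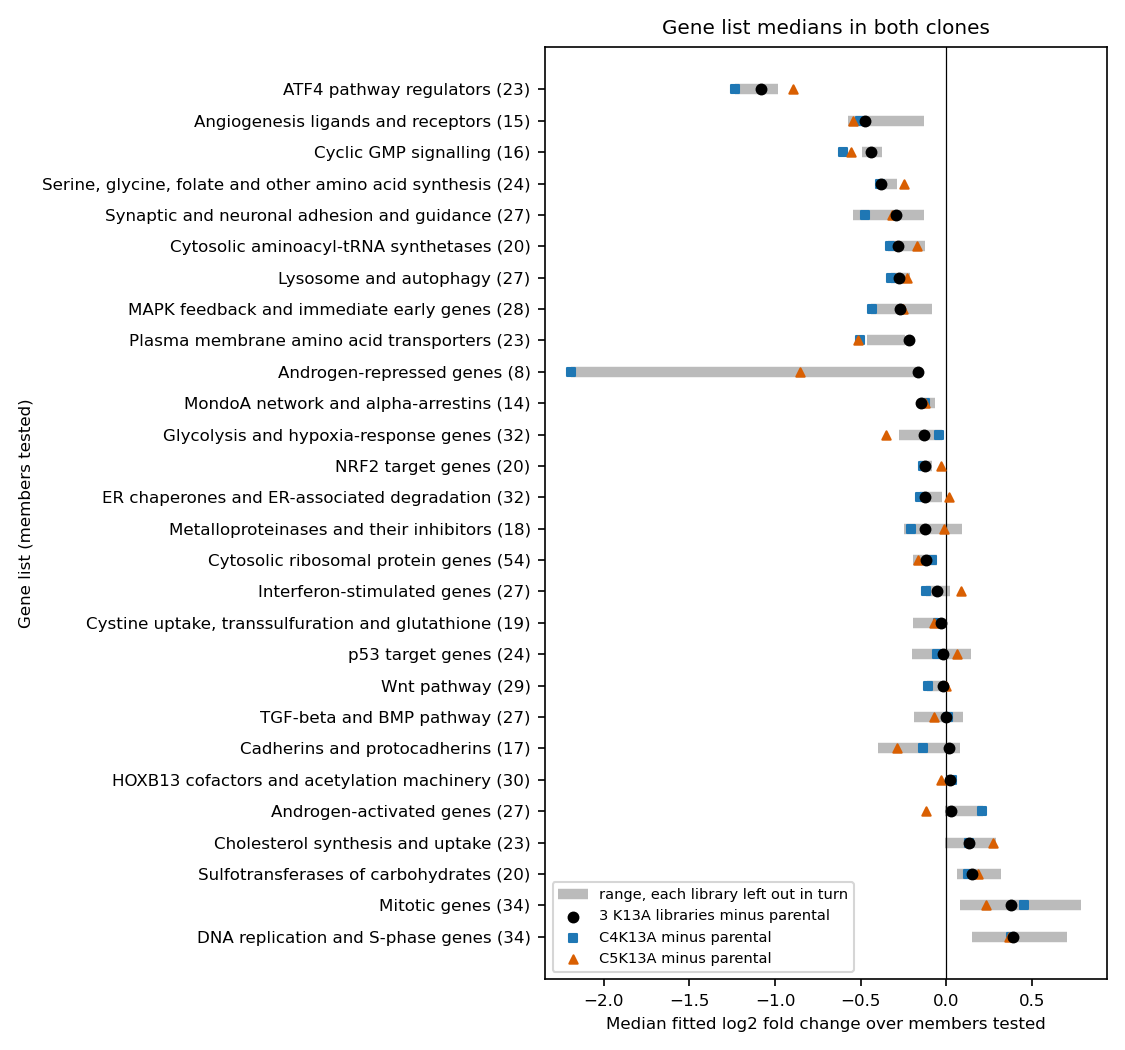
Median fitted log2 fold change over the tested members of 28 gene lists (numbers of members in brackets), for all K13A libraries (circles), C4K13A (squares) and C5K13A (triangles) against parental; the line marks all autosomal genes and grey bars the range when each library was left out in turn. Over all K13A libraries ATF4 pathway regulators lie lowest, at -1.08, and DNA replication genes highest, at 0.39 with a range from 0.15 to 0.70.

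Genes beside the called ones were examined next, within 1 Mb on either side. Of the 29, 26 had protein-coding neighbours that were tested, 392 in all. The median of the neighbours' medians was 0.006, and 18 neighbours were shifted alike on the lower side (4.59%) and 4 on the higher side (1.02%). The shares over all protein-coding autosomal genes were 2.98% and 1.07%. The neighbours named here were chosen after their values were seen, and none of them passed the test. TES had the lowest neighbour median, -1.42, over 3 genes on chromosome 7. ST7, TES and MET lie between 116210493 and 117230103 (GRCh38, GENCODE v29). ST7 had 44.6 and 90.7 CPM in parental, 25.4 and 19.1 in C4K13A and 31.2 in C5K13A (-1.42 ± 0.31, adjusted p = 0.181). MET, the receptor of hepatocyte growth factor, had 0.539 and 1.22 CPM in parental and 0.0471 to 0.234 in the clones (adjusted p = 0.265). PEG10, an imprinted gene that overlaps the start of SGCE on the opposite strand, had 54.1 and 158.6 CPM in parental, 14.96 and 4.84 in C4K13A and 0.707 in C5K13A. All clone libraries of PEG10 were below both parental ones (-3.42 in C4K13A and -7.23 in C5K13A, adjusted p over both 0.209). Since the strand setting is not given in the sources used here, reads where the genes overlap cannot be told apart.

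SCNN1G, the gamma subunit next to SCNN1B on chromosome 16, had 7.80 and 8.22 CPM in parental, 0.559 and 0.421 in C4K13A and 2.71 in C5K13A (adjusted p = 0.229). LYPD6B and LYPD6, next to KIF5C on chromosome 2, were at 0.910 to 1.34 and at 1.5 to 1.87 CPM in parental, and at 0.160 to 0.283 and 0.234 to 0.542 in the clones (adjusted p = 0.184 for both). AKAP12, an anchoring protein gene near SYNE1 on chromosome 6, had 4.23 and 3.54 CPM in parental and 1.10, 0.187 and 0.377 in the clones (adjusted p = 0.184). SLC7A11, MAP1B, GRB10 and TXNIP had 0 neighbours that were shifted alike.

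Over whole autosomes, medians of both clones were within about 0.1 of the overall median except on chromosomes 3, 6 and 17. On chromosome 6 both clones were slightly higher, at 0.14 in C4K13A and 0.12 in C5K13A. On chromosomes 3 and 17 they parted: C4K13A had medians of -0.27 and -0.32, and C5K13A of 0.05 and 0.07. LRRN1 and CHST2 lie on chromosome 3, and no called gene lies on chromosome 17.

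The calls rested on single libraries. By edgeR's test the number of autosomal genes called was 0 without parental library 1 (1121 at an unadjusted p under 0.05), where the adjusted p of the 29 ran from 0.136 to 0.531. It was 19 without parental library 2, of which 6 belonged to the 29 (PLPP2, PCDH7, TXNIP, GDF15, LRRN1 and CHST2). It was 7 and 3 without C4K13A library 1 and 2, and 116 without C5K13A. All 29 kept their direction in every alternative that tested them. PCDH7 was called in 16 of 17 alternatives, MMP16 in 14, TXNIP in 13, and MARK1 in 5, the fewest of the 29. DESeq2 called 516 autosomal genes, all 29 among them, and limma-voom 6. With the C4K13A libraries summed, so that each clone counted once, 3 genes were called, all lower, and TXNIP, ARRDC4 and PTX4 were not among them. In 15 of the 29 the higher group had a mean under 10 CPM.

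**Figure D4:**
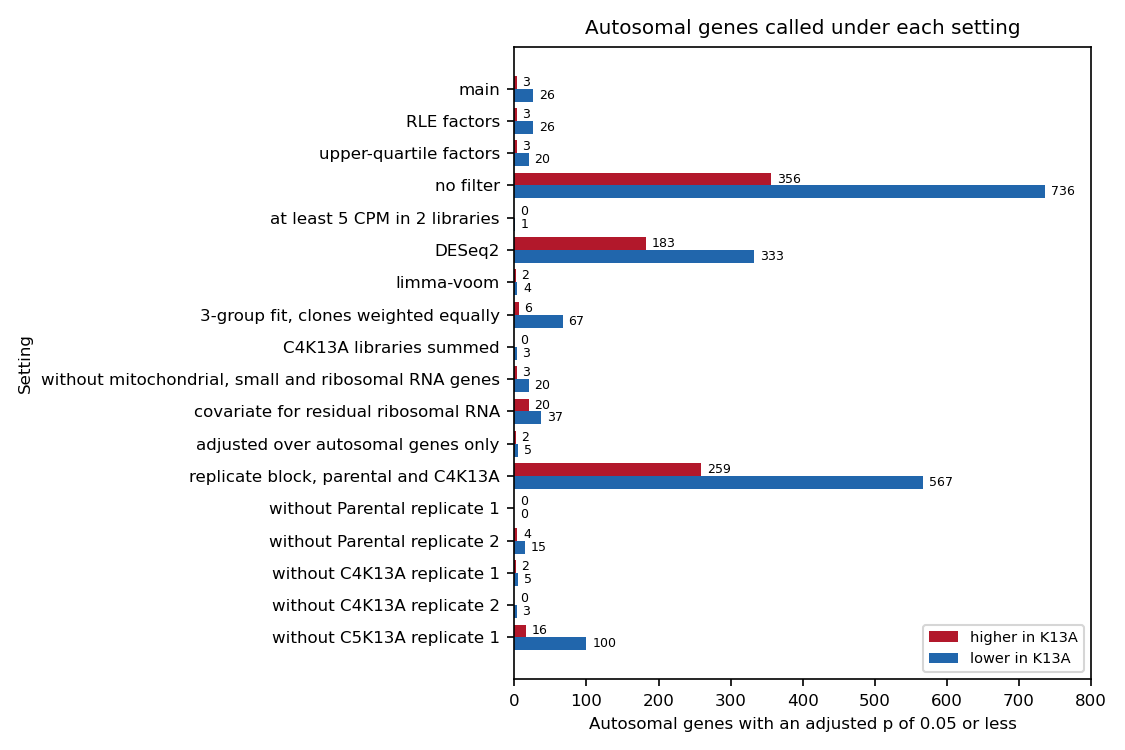
Number of autosomal genes with an adjusted p of 0.05 or less under each setting, higher (red) and lower (blue) in the K13A clones; "main" is the fit reported in the text. Counts range from 0 without parental library 1 to 1092 without a filter on low counts (356 higher and 736 lower).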

How the data were processed

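RNA of 5 C4-2B libraries (2 parental, 2 C4K13A, 1 C5K13A) was column-purified, treated with DNase I, freed of ribosomal RNA and read on an Illumina HiSeq instrument, per the labels' protocols. The authors deposited raw counts per gene, as whole numbers, for 58812 Ensembl gene IDs. They used bcl2fastq, STAR 2.5 and featureCounts 1.4.6-p5 of Subread, per the submitters' processing notes. Not given in the sources used here are genome build, annotation, strand setting and the handling of multiple alignments. Symbols and positions came by ID from GENCODE v29 (GRCh38), which held 55297 of the IDs.

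The main test was edgeR 4.0.16 (R 4.3.3), with filterByExpr, TMM factors and the quasi-likelihood test, 2 groups with 3 residual degrees of freedom, and Benjamini-Hochberg adjustment over all genes tested (threshold 0.05). Values of each clone and of C5K13A against C4K13A came from a 3-group fit (2 residual degrees of freedom), where C5K13A, having 1 library, is taken to vary as the other groups do. A standard error is the absolute fold change over the square root of F. Library totals are those of the count table, and library pairs differed by far more than sampling noise (chi-square per gene 46.7 or more). The parental libraries were the pair farthest apart, at 164, above every pair of a parental and a clone library (50.1 to 158). The C4K13A libraries were at 49.3, and C4K13A library 2 and C5K13A at 46.7. The test was also run on simulated counts drawn as independent libraries, with no clone or replicate effect. That run does not show how the test behaves on these libraries.

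Named genes are every called autosomal gene, the 8 on each side with the smallest p among protein-coding genes that were shifted alike, uncalled and at 5 CPM or more, the 3 members of each list with the smallest p (some are given), HOXB13, TNK2 and VEGFA. Members and lists were chosen with earlier results of these data known. Promoters are RefSeq's windows from 250 bases before to 50 after a start site; 21 of the 29 called genes had an entry. Alternatives were other scaling factors, no or a stricter filter, DESeq2 1.42.0, limma-voom (limma 3.58.1), a 3-group fit, summed C4K13A libraries, removal of small and ribosomal RNA genes, a covariate for residual ribosomal RNA, adjustment over autosomal genes, a replicate block and leaving out each library. Chromosome Y was left aside. Some members of the lists are not reported here.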

Additional observations from a re-analysis of the deposited data

How the results depend on the processing

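The count of 29 autosomal genes was 29 with RLE factors, 23 with upper-quartile factors and 23 with small, mitochondrial and ribosomal RNA genes removed. It was 1092 without a filter, 1 at 5 CPM or more in 2 libraries (PCDH7), 516 with DESeq2, 6 with limma-voom, 73 in the 3-group fit, 3 with the C4K13A libraries summed, 57 with the covariate for residual ribosomal RNA and 7 when adjusted over autosomal genes. Leaving out each library gave 0 to 116. Of the 29, 27 were among the 73 and 27 among the 57. Some settings hold fewer genes or libraries, and the causes of these changes were not tested.

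Genes shifted alike numbered 258 higher and 622 lower. They were 674 and 1667 without a filter, 49 and 104 with the 5 CPM filter, 597 and 1235 at a minimum of 0.58, and 62 and 146 at a minimum of 2 on the log2 scale. Leaving out a library gave 217 to 875 higher and 594 to 1637 lower. This rule was not run under the replicate block, without C5K13A, or with DESeq2 or limma-voom.

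HOXB13 turned to 0.0435 without parental library 2 and was at -0.37 without parental library 1. Of the named genes' values under the alternatives 1468 kept their direction and side of the threshold, 210 lost a call and 222 gained one. Of 392 list medians 78 moved by more than the standard deviation of that list's median over the K13A libraries. This spread spans both clones and leaves out the scatter of the parental libraries. A replicate block over parental and C4K13A libraries, whose numbers the labels do not tie to a shared day or culture, gave 826 autosomal genes called, the 29 among them. That block splits these libraries just as the covariate for residual ribosomal RNA does. Same-numbered libraries deviated together with r = 0.196 across 20649 genes, which are not independent replicates. Counts of a few reads limit PCDH7, SGCE, ANK2 and RN7SL8P.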
